A study of Homo sapiens with 18 samples.

Results

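The RNA levels of 47 interferon-stimulated genes were followed in 2 human cancer cell lines after transfection of 3 short RNAs. The 47 genes were taken by symbol from a list of well-known targets of interferon, and each symbol matched 1 of the 58395 genes in the deposited tables. HeyA8 is a line from ovarian cancer and PC3 a line from prostate cancer, and the labels give both as wild type. Each line received sNT8, the control, or sG5C or sCAG, at 10 nM with the transfection reagent RNAiMax, and RNA was taken after 48 h. The series title places these short RNAs among inducers of DISE, a way for cells to die. The 6 groups have 3 libraries each, lettered A to C, and every control cell was itself transfected, so a level under sNT8 is not that of an untouched cell. Each line stands for 1 tumour, and nothing in the labels says that libraries of a group came from separate cultures, so the p-values measure the spread between these libraries. In bulk RNA, a change in the number of cells that express a gene cannot be told apart from a change in RNA per cell.

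Cells answer interferons through surface receptors, whose kinases activate STAT proteins. After type I or type III interferon, STAT2 and a partner STAT join IRF9 and bind the interferon-stimulated response element, ISRE, in the promoters of many genes, and IRF1 and IRF7 bind related elements. After interferon gamma, STAT dimers bind another element, GAS. The induced proteins hinder viruses at entry, translation, replication and release, and many tumour lines keep part of this set switched on without infection.

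The promoters of 4 members are printed here because they show elements through which interferon is known to act, in 3 genes with the ISRE type and in IRF1 with the GAS type. The sequences are RefSeq promoters of GRCh38.p14, from 250 bases before to 50 bases after the gene's start, and capitals mark the elements. An ISRE-like element was searched as GAAA, any pair of bases and GAAA, on both strands, and a GAS-like element as TTCNNNGAA, which reads alike on both strands.
IFIT1, chr10:89392373-89392672, plus strand: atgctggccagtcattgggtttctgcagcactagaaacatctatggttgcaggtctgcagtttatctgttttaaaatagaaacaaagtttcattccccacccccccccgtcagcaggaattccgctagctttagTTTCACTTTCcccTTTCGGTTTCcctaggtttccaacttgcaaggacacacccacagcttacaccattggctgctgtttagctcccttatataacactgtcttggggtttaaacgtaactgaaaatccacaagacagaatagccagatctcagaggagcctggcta
ISG15, chr1:1013247-1013546, plus strand: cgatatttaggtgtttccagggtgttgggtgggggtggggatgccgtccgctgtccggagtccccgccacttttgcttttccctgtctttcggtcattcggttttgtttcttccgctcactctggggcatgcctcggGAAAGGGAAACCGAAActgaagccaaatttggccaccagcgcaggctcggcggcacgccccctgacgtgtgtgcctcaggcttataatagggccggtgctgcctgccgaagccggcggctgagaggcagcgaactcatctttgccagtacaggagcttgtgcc
IFI6, chr1:27672143-27672442, minus strand: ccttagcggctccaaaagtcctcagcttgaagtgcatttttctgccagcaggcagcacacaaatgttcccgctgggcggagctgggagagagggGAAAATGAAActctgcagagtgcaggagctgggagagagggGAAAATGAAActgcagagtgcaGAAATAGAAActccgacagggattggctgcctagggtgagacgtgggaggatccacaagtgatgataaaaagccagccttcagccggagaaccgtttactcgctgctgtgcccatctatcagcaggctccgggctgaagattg
IRF1, chr5:132490724-132491023, minus strand: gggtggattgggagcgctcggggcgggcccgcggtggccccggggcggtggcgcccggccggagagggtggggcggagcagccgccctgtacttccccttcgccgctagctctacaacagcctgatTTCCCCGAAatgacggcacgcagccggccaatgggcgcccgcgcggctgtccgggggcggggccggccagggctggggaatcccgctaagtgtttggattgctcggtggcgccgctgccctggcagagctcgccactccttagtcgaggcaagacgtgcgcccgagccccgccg
IFIT1 and ISG15 hold 2 ISRE-like elements each, overlapping in ISG15, and IFI6 holds 3. IRF1 holds 1 GAS-like element and no ISRE-like one in this window. Promoters of 37 of the 47 members are in the table, and 24 of the 37, 64.9%, hold an ISRE-like element, against 4.38% of 27305 genes. A GAS-like element was found in 12 of the 37, 32.4%, against 9.38% of all genes. Both motifs can overlap, as they do in BST2, IFI27 and IFITM1. Several members are neighbours: IFIT2, IFIT3, IFIT1 and IFIT5 lie within chr10:89283694-89421001 (hg38), OAS1, OAS3 and OAS2 within chr12:112906777-113011723, and MX2 and MX1 within chr21:41361943-41459214. MX2, IFITM2, PML, IFIT2, OAS2, APOL1, USP18, IRF7, OASL and TRIM22 are among the 47 but not in that table. A match describes letters and does not show that a factor binds there.

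The libraries held 31232377 to 41384838 reads on genes. Levels are given as CPM, read counts brought to a common library size after TMM scaling over the 18 libraries, a scale on which a gene's level can be compared between libraries but not with that of a longer or shorter gene. Log2 changes against sNT8 come from limma on the authors' normalised values plus 1, and the other comparisons from edgeR's quasi-likelihood test on reads. A gene was called at an adjusted p under 0.05 over all genes tested (Benjamini-Hochberg), and a change is given with its standard error (SE). In each line the sG5C and sCAG comparisons share the same 3 sNT8 libraries.

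Summed over the 47 genes, RNA stood at 1501, 1413 and 1402 CPM in the HeyA8 sNT8 libraries, at 1066, 1108 and 1153 after sG5C and at 2239.9, 2185 and 2201 after sCAG. In PC3 the sum was 2131, 2436 and 2607 CPM under sNT8, 4604, 5122 and 5271 after sG5C and 13536, 14829 and 16766 after sCAG. The 3 groups of each line did not overlap, and their order differed, with sG5C below the control in HeyA8 and above it in PC3. In PC3 the highest group mean was that of sCAG for 46 of the 47 members, and IRF1 was highest after sG5C. In HeyA8 the highest mean was that of sCAG for 31 members, of sNT8 for 10 and of sG5C for 6.

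**Figure D1:**
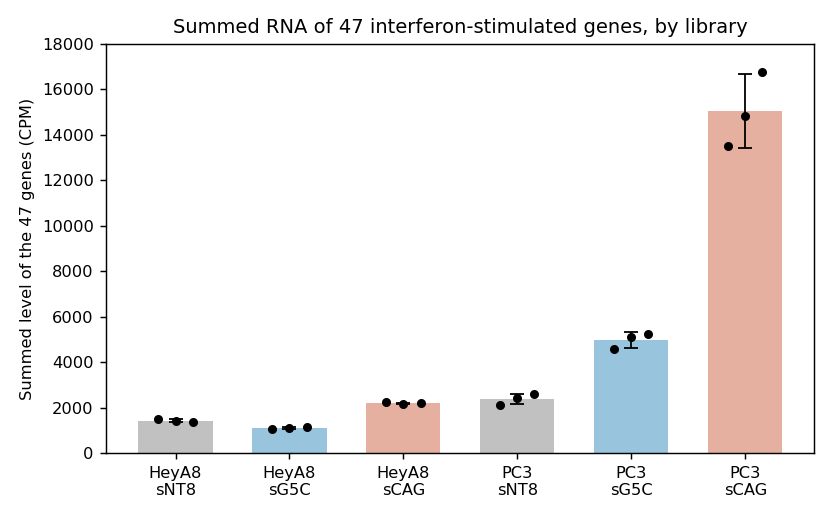
Summed level of the 47 interferon-stimulated genes in CPM, with bars for the mean of 3 libraries, whiskers for the SD and points for libraries A, B and C of each group. PC3 sCAG stands highest, with libraries at 13536, 14829 and 16766 CPM, and HeyA8 sG5C lowest, between 1066 and 1153 CPM.

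Per kilobase of exon, the scale that allows genes to be compared, the leading members differed between the lines. In PC3 under sNT8 the highest were IFI6, an inhibitor of mitochondrial cell death, at 171 CPM per kilobase, and ISG15, a ubiquitin-like modifier, at 99.0. After sCAG the same 2 genes led PC3, with IFI6 at 1064 and ISG15 at 706. In HeyA8 IFITM3, a membrane protein that blocks virus entry, led in each group, with 98.6 under sNT8, 121 after sG5C and 290.2 after sCAG. ISG15 in HeyA8 under sNT8 stood at 3.42 on that scale.

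Under sNT8 the 2 lines already differed in most members. All 47 were tested between the lines, and 36 were called higher in PC3 and 9 lower, beside 38.6% of all genes called higher and 32.8% lower. The median log2 difference over the members was 2.02, against 0.10 over all genes tested. These counts include 9 members below the read filter in both HeyA8 comparisons with sNT8, all 9 called higher in PC3. Members low in HeyA8 enter this fit mainly through PC3 reads, which favours a higher call there. Of the 38 that reached the filter in a HeyA8 comparison with sNT8, 27 were higher in PC3 and 9 lower, with a median of 1.504. The levels of 34 members lay above those of HeyA8 in every PC3 sNT8 library, and 10 lay below. The 34 were counted over all 47 members, and the share of all genes lying apart in this way was not counted. In HeyA8 34 members reached 1 CPM in each sNT8 library, against 44 in PC3.

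The widest gaps were in genes with almost no reads in HeyA8. RSAD2, the antiviral enzyme viperin, and its chromosomal neighbour CMPK2, a nucleotide kinase, had no read in any of the 9 HeyA8 libraries. RSAD2 was at 6.59, 10.4 and 9.56 CPM in the PC3 sNT8 libraries, at least 318-fold above the level of 3 reads over the HeyA8 group, and CMPK2 at 6.28, 8.70 and 7.98 CPM, at least 275-fold above it. XAF1, a cofactor of cell death, had no read in HeyA8 under sNT8 or sCAG and stood at 0.992, 2.40 and 1.77 CPM in PC3 under sNT8. OAS1, an enzyme that makes the signal for RNase L, was at 0.0823, 0.0574 and 0.165 CPM in HeyA8 and at 36.8, 44.03 and 47.5 in PC3. BST2, the tether of budding viruses also called tetherin, was at 0.110, 0.115 and 0.0275 CPM in HeyA8 and at 68.0, 71.3 and 76.4 in PC3. These genes were below or near the detection floor in HeyA8 and well measured in PC3, and the sNT8 groups of the lines did not overlap. MX2, EPSTI1, RTP4 and IFITM1 also stayed under 1 CPM in each HeyA8 library.

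**Figure D2:**
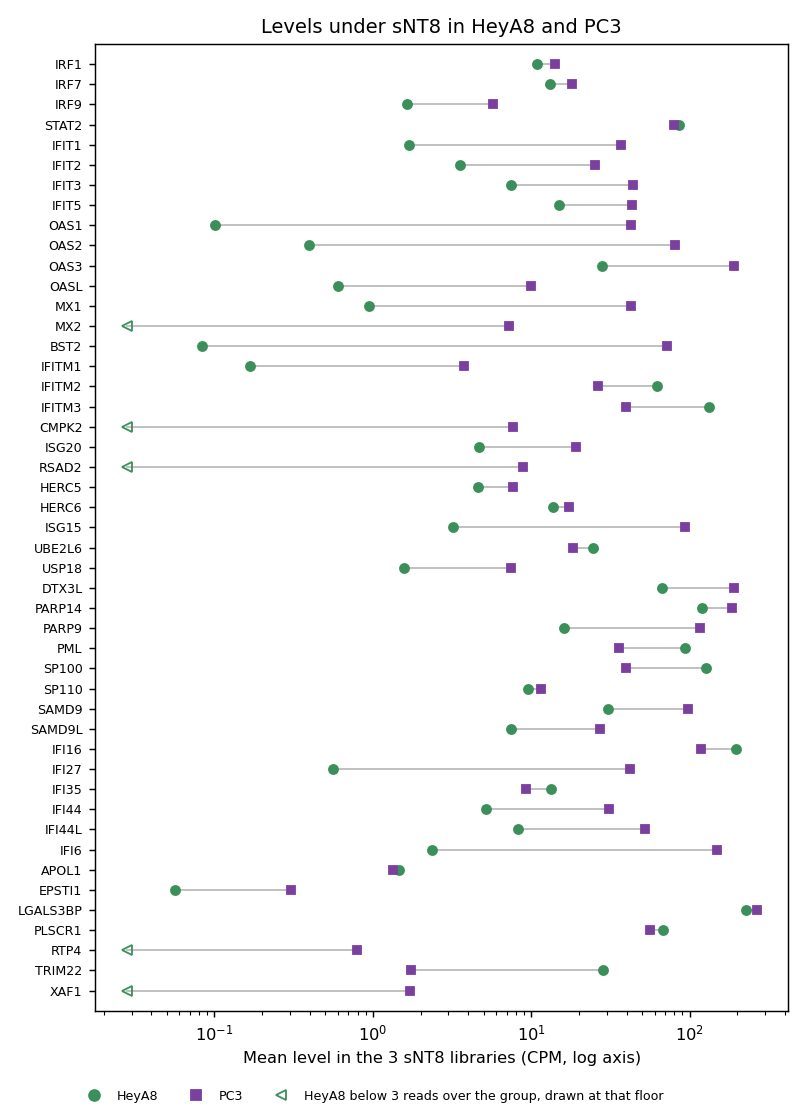
Mean level of each member in the 3 sNT8 libraries of HeyA8 (circles) and PC3 (squares), in CPM on a log axis, with open triangles at the floor of 3 reads over the HeyA8 group. Most squares lie to the right, with RSAD2 at 8.86 CPM in PC3, while TRIM22 lies to the left at 1.75 against 28.3 CPM.

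The 9 members called lower in PC3 were TRIM22, IFITM3, SP100, PML, IFITM2, IFI16, IFI35, UBE2L6 and PLSCR1. TRIM22, an antiviral ubiquitin ligase, was at 28.4, 27.4 and 29.02 CPM in HeyA8 and at 1.04, 2.17 and 2.04 in PC3, a log2 difference of -4.03 ± 0.16 (SE, adjusted p = 1.63e-22, edgeR). PML and SP100, which build nuclear bodies, were at 92.8 ± 2.28 and 127 ± 2.13 CPM in HeyA8 and at 36.02 ± 1.37 and 39.7 ± 4.20 CPM in PC3 (mean ± SD, n = 3). STAT2 and APOL1 were not called between the lines, with log2 differences of -0.11 (95% interval -0.25 to 0.03) and -0.13 (-0.60 to 0.35). In HeyA8 9 members did not reach the read filter in either comparison with sNT8, namely MX2, OAS1, BST2, IFITM1, CMPK2, RSAD2, EPSTI1, RTP4 and XAF1.

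In PC3 all 47 members were tested after sCAG, and each was called higher than under sNT8, beside 27.6% of all genes called higher and 23.2% lower. The log2 changes ran from 1.04 for IRF9 to 5.74 for EPSTI1, with a median of 2.67 against -0.002 over all genes tested, and the largest adjusted p was 5.10e-04 (limma). Each of the 47 had its 3 sCAG libraries above its 3 sNT8 libraries, though the share of all genes lying apart in this way was not counted. After sG5C 42 members were called higher and 1 lower, beside 28.5% and 29.2% of all genes, and the median log2 change was 1.11 against -0.01 over all genes. Tested directly, 45 members were higher after sCAG than after sG5C and 1 lower, beside 31.7% and 31.1% of all genes, with a median log2 difference of 1.72 against -0.04 (edgeR). Of the 47, 45 had every sCAG library above every sG5C library, again with no count over all genes to set beside it.

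**Figure D3:**
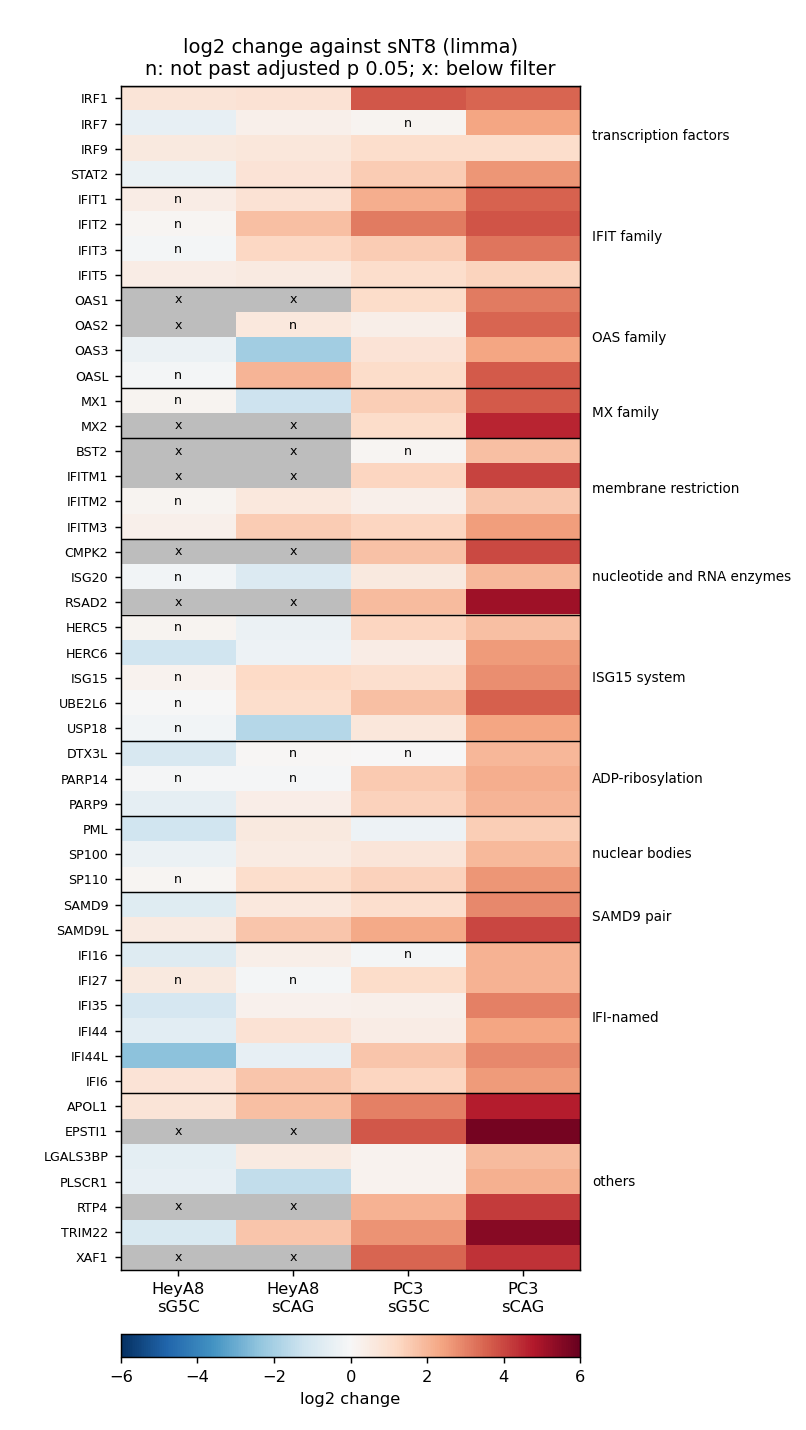
Log2 change of each member against sNT8 in the same line (limma), one row per gene in role order, with n for a gene not past an adjusted p of 0.05 and x on grey for a gene below the read filter. The PC3 sCAG column is red in all 47 rows, from 1.04 to 5.74, while the HeyA8 columns hold both colours, down to -2.44 for IFI44L after sG5C.

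Among the transcription factors in PC3, STAT2 and IRF7 stood higher after sCAG than after sG5C, by direct log2 differences of 1.12 ± 0.08 and 2.19 ± 0.07, while IRF1 and IRF9 did not. STAT2, a part of the complex that binds the ISRE, was at 76.3, 81.2 and 81.3 CPM in the sNT8 libraries, at 189, 229 and 261 after sG5C and at 478, 507 and 552 after sCAG. The 3 groups lay apart, with log2 changes of 1.503 ± 0.08 and 2.63 ± 0.05. IRF1, itself a rapid target of interferon, was at 11.5, 15.8 and 15.0 CPM under sNT8, at 167, 167 and 218 after sG5C and at 154, 159.7 and 176 after sCAG. Both treated groups stood far above the control, with 13.1-fold and 11.2-fold changes, and overlapped each other. The direct difference for IRF1 was -0.24 ± 0.09 on the log2 scale (adjusted p = 0.0221, edgeR), the single member called lower after sCAG than after sG5C. That call was lost with DESeq2 and without sG5C library C (-0.09), sCAG library A (-0.17) or sCAG library B (-0.20), where the count of members called lower was 0.

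IRF7, which drives the later wave of interferon genes, was at 17.2, 17.9 and 19.0 CPM under sNT8, at 20.6, 19.6 and 21.0 after sG5C and at 88.2, 97.7 and 106 after sCAG. Its sCAG libraries stood far above the rest, and its sG5C libraries just above the control, where the log2 change of 0.18 ± 0.08 was not called (adjusted p = 0.0557, limma). It was called with a minimum count of 50 (adjusted p = 0.0446, limma), and over the alternatives the adjusted p ran from that value to 0.180. It was also called with the letter as a replicate block. IRF9, the DNA-binding part of the ISRE complex, was at 4.25, 5.86 and 7.05 CPM under sNT8, at 10.3, 12.6 and 11.9 after sG5C and at 10.4, 13.9 and 12.1 after sCAG. It rose after both, and the direct difference was 0.004 (95% interval -0.25 to 0.25). IRF9 shares 48.4% of its exon bases with the gene AL136295.5 on the same strand, so its counts are uncertain, as reads there can be split or dropped.

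The IFIT genes, whose proteins hold back viral RNA from translation, rose in PC3 after both short RNAs, 4 of 4. IFIT1 was at 30.7, 35.9 and 43.8 CPM under sNT8, at 168, 175 and 156 after sG5C and at 415, 432 and 495 after sCAG, and the groups lay apart. IFIT2 was at 21.7, 26.5 and 27.9 CPM, then 211, 207 and 228 after sG5C and 347, 339 and 402 after sCAG. IFIT2 was the member of this family with the highest rise after sG5C, at a log2 change of 3.10 ± 0.08 against 3.78 ± 0.11 after sCAG, and the direct difference was 0.69 ± 0.07. IFIT3 changed by 1.51 ± 0.07 and 3.19 ± 0.08, and IFIT5 by 1.07 ± 0.06 and 1.35 ± 0.06. The direct difference was smallest for IFIT5, at 0.28 ± 0.06 (adjusted p = 1.46e-04, edgeR).

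The OAS genes, 4 of 4, rose after both short RNAs in PC3, and each stood higher after sCAG, by direct differences from 1.56 ± 0.09 for OAS3 to 3.14 ± 0.10 for OAS2. OAS1 was at 36.8, 44.03 and 47.5 CPM under sNT8, at 87.6, 91.4 and 93.3 after sG5C and at 359, 386 and 431 after sCAG. OAS2, a related synthetase, was at 66.4, 82.5 and 94.1 CPM, then 96.9, 102 and 109 after sG5C and 804, 947 and 1082 after sCAG. All groups lay apart, and OAS2 showed a log2 change of 0.36 ± 0.10 after sG5C, a call that was lost without sG5C library C (0.32), and of 3.49 ± 0.19 after sCAG. OAS3 changed by 0.82 ± 0.10 and 2.36 ± 0.18, and OASL, which lacks the synthetase activity, by 1.08 ± 0.11 and 3.66 ± 0.20.

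The dynamin-like GTPases MX1 and MX2, which trap viral nucleoprotein complexes, showed the same order. MX1 was at 34.2, 42.9 and 50.6 CPM under sNT8, at 104, 117 and 127 after sG5C and at 492, 543 and 640.0 after sCAG in PC3. MX2 was at 6.43, 7.24 and 8.01 CPM, then 16.0, 14.0 and 16.6 after sG5C and 143, 172 and 224 after sCAG. The groups lay apart for both, and the direct difference of MX2, 3.47 ± 0.11, was the largest of all members in PC3.

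RSAD2, CMPK2 and ISG20, enzymes that act on nucleotides or viral RNA, rose after both short RNAs in PC3. RSAD2 went from 6.59, 10.4 and 9.56 CPM under sNT8 to 26.9, 36.2 and 36.2 after sG5C and 274, 301 and 373 after sCAG. That is a 3.78-fold rise after sG5C and a 34.5-fold rise after sCAG. CMPK2 changed by 1.75 ± 0.12 and 3.95 ± 0.17 on the log2 scale, and ISG20 by 0.60 ± 0.09 and 1.94 ± 0.07.

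Among the membrane proteins that restrict viruses, IFITM1, IFITM2 and IFITM3 rose after both short RNAs, and BST2 was called after sCAG. IFITM1 was at 2.57, 3.29 and 5.36 CPM under sNT8, at 7.89, 9.98 and 8.38 after sG5C and at 52.7, 66.1 and 70.0 after sCAG. BST2 was at 68.0, 71.3 and 76.4 CPM, then 72.1, 81.9 and 78.9 after sG5C and 242, 250.3 and 296 after sCAG. BST2 overlapped the control after sG5C, with a log2 change of 0.12 ± 0.06 (adjusted p = 0.119, limma), and stood 3.50-fold above it after sCAG. Without sG5C library A, BST2 was also called after sG5C, at 0.16. IFITM3 changed by 1.31 ± 0.07 and 2.52 ± 0.08, and IFITM2 by 0.31 ± 0.08 and 1.62 ± 0.06. IFITM1 and IFITM2 share 351 exon bases on the same strand and are close paralogs, so reads may be split between them.

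The ISG15 system attaches and removes the modifier ISG15, and its 5 genes rose after both short RNAs in PC3. ISG15 itself was at 86.0, 94.1 and 99.4 CPM under sNT8, at 174, 198 and 192 after sG5C and at 605, 657 and 731 after sCAG. UBE2L6, the conjugating enzyme, changed by 1.80 ± 0.08 and 3.58 ± 0.13. HERC5, the main ISG15 ligase in human cells, changed by 1.31 ± 0.11 and 1.80 ± 0.11, and its relative HERC6 by 0.46 ± 0.11 and 2.57 ± 0.19. USP18, which removes ISG15 and restrains the receptor, was at 7.07, 7.44 and 7.92 CPM, then 11.2, 12.3 and 12.4 after sG5C and 37.3, 37.4 and 46.8 after sCAG, with all 3 groups apart.

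PARP9 and DTX3L, which act as a pair in ADP-ribosylation and ubiquitin transfer, had different calls after sG5C in PC3. PARP9 was at 96.3, 121 and 129.6 CPM under sNT8, at 268, 308 and 316 after sG5C and at 432, 498 and 549.8 after sCAG. DTX3L was at 169, 193 and 206 CPM, then 185, 192 and 193 after sG5C and 746, 768 and 850.1 after sCAG. PARP9 was called higher after sG5C (1.37 ± 0.10), and DTX3L overlapped the control, with 0.02 ± 0.06 (adjusted p = 0.833, limma). After sCAG their changes were 2.04 ± 0.16 and 2.00 ± 0.08, and the difference between the 2 genes was not tested. PARP14, another ADP-ribosyltransferase, changed by 1.56 ± 0.07 and 2.20 ± 0.07.

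Among the members, the single call below the control in PC3 was that of the nuclear body gene PML. PML was at 36.98, 34.4 and 36.6 CPM under sNT8, at 27.0, 29.2 and 31.7 after sG5C and at 97.3, 105 and 116 after sCAG. Its sG5C libraries lay below every control library and its sCAG libraries above, with a log2 change of -0.29 ± 0.07 after sG5C (adjusted p = 0.00110, limma) and of 1.498 ± 0.06 after sCAG. Without sNT8 library A, IFI16 was also called lower after sG5C, at -0.18, which made 2 members, and with library totals in place of size factors the count was also 2. SP100 changed by 0.72 ± 0.07 and 1.95 ± 0.08, and SP110, a nuclear body relative, by 1.37 ± 0.08 and 2.67 ± 0.08.

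SAMD9 and SAMD9L, neighbouring genes whose proteins stop translation of some viruses, both rose after both short RNAs. SAMD9 was at 87.5, 103 and 104 CPM under sNT8, at 190.4, 211 and 196 after sG5C and at 709, 732 and 857 after sCAG. SAMD9L was at 20.7, 29.4 and 31.2 CPM, then 112, 137 and 140.3 after sG5C and 401, 432 and 510.1 after sCAG. The groups lay apart for both genes.

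Of the 6 genes named IFI, all rose after sCAG in PC3 and 5 after sG5C. IFI6 was at 133, 148 and 164 CPM under sNT8, at 325, 384 and 384 after sG5C and at 792, 909 and 1061 after sCAG. IFI27, a small mitochondrial protein, was at 37.2, 44.001 and 44.1 CPM, then 79.2, 93.6 and 93.5 after sG5C and 169, 179 and 199 after sCAG. IFI44L, a feedback regulator of the response, was at 45.3, 47.8 and 62.9 CPM, then 144, 166 and 176 after sG5C and 368, 397 and 431 after sCAG. Each of these had 3 separate groups. IFI16, a sensor of DNA, was at 106, 122 and 126 CPM under sNT8, at 113, 114 and 100.1 after sG5C and at 478, 508 and 556 after sCAG. It overlapped the control after sG5C (-0.10 ± 0.07, adjusted p = 0.201, limma) and stood above it after sCAG (2.06 ± 0.07). IFI35 changed by 0.31 ± 0.11 and 3.01 ± 0.08, and IFI44 by 0.42 ± 0.10 and 2.36 ± 0.17. The IFI35 call after sG5C was lost without sNT8 library A (0.28), sG5C library B (0.29) or sG5C library C (0.20), and IFI16 was called lower without sNT8 library A (-0.18).

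Several of the largest rises in PC3 were in genes with low control levels. EPSTI1 was at 0.153, 0.458 and 0.300 CPM under sNT8, at 3.19, 4.67 and 4.23 after sG5C and at 14.8, 16.7 and 19.8 after sCAG, a 53.5-fold change after sCAG. TRIM22 was at 1.04, 2.17 and 2.04 CPM, then 9.04, 11.1 and 13.2 after sG5C and 64.7, 76.0 and 94.9 after sCAG, with a 43.9-fold change after sCAG. APOL1, a secreted trypanosome-killing factor, was at 1.20, 1.60 and 1.23 CPM, then 8.6002, 11.8 and 13.4 after sG5C and 31.8, 35.5 and 44.1 after sCAG. XAF1 rose to 14.0, 20.0 and 21.4 CPM after sG5C and to 30.2, 33.1 and 39.6 after sCAG, and RTP4 changed by 2.10 ± 0.21 and 4.18 ± 0.17. In all of these the 3 groups were apart. LGALS3BP, a secreted glycoprotein, and PLSCR1, a lipid scramblase, had small changes after sG5C, of 0.20 ± 0.06 and 0.23 ± 0.07, and larger ones after sCAG, of 1.91 ± 0.08 and 2.15 ± 0.09. After sG5C both calls were lost without sNT8 library A (0.14 and 0.15), and that of PLSCR1 also without sG5C library B (0.19).

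**Figure D4:**
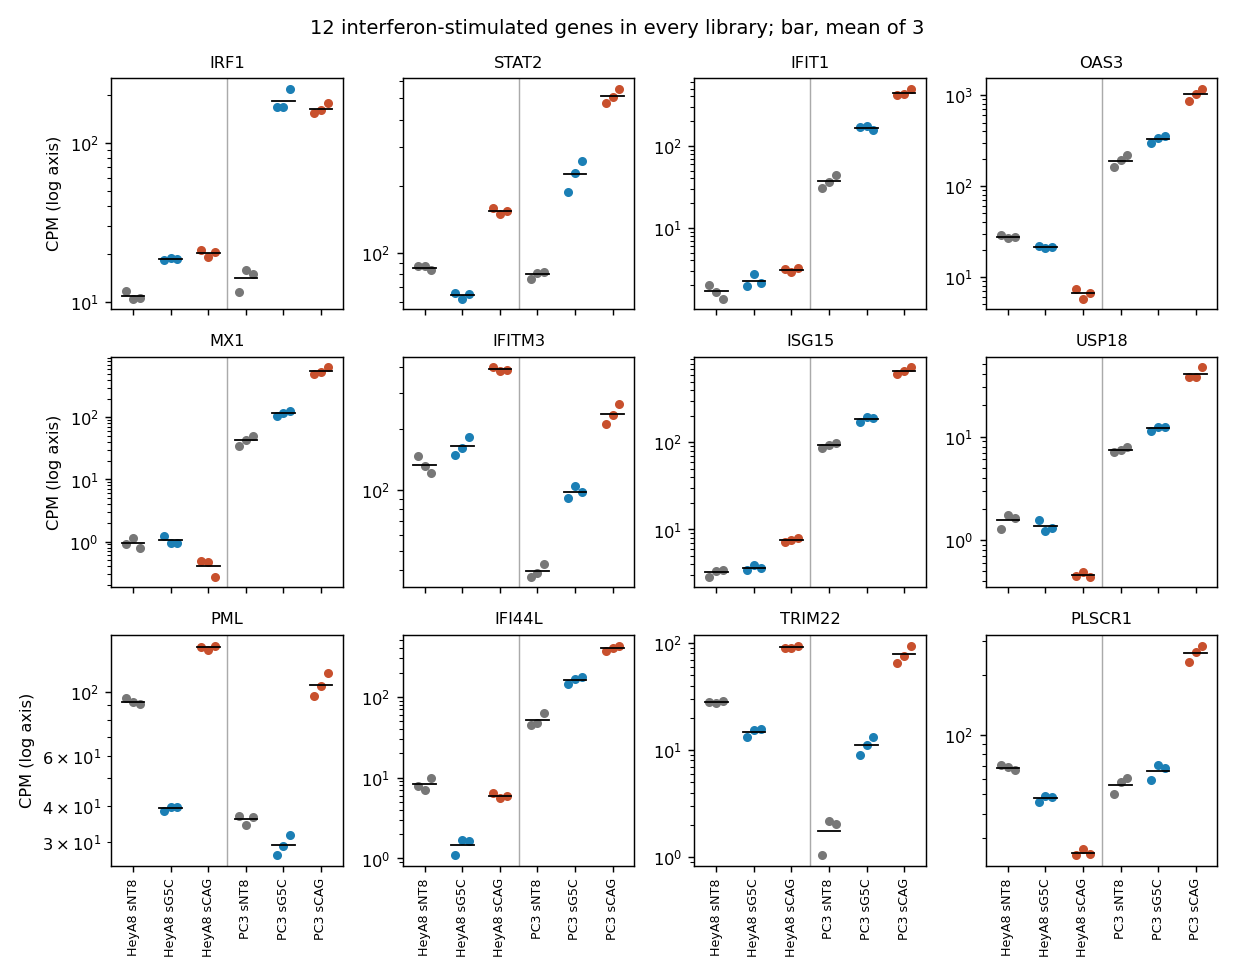
Level of 12 members in CPM on log axes, with a point for each library and a bar for the mean of 3, grey for sNT8, blue for sG5C and red for sCAG. In PC3 most panels rise from grey to red, IRF1 has blue above red, and in HeyA8 OAS3, USP18 and PLSCR1 are lowest in red, at means of 6.65, 0.461 and 25.4 CPM.

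In HeyA8 the members moved in both directions. After sCAG 38 members reached the read filter, of which 26 were called higher and 8 lower than under sNT8, beside 29.3% of all genes called higher and 30.2% lower. The median log2 change of the 38 was 0.61, against 0.01 over all genes tested (limma). After sG5C 37 members were tested, 7 called higher and 16 lower, beside 24.5% and 27.9% of all genes, with a median of -0.11 against 0.01. Tested directly, 39 members reached the filter, and 26 were higher and 6 lower after sCAG than after sG5C, beside 31.9% and 33.4% of all genes, with a median of 0.94 against -0.05 (edgeR). The last count of 6 was 10 when libraries were scaled by their totals alone.

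The HeyA8 members that rose most after sCAG were OASL, APOL1, IFIT2, SAMD9L, IFI6 and TRIM22. OASL was at 0.466, 0.574 and 0.769 CPM under sNT8, at 0.366, 0.640 and 0.656 after sG5C and at 2.44, 3.33 and 2.03 after sCAG, a log2 change of 2.02 ± 0.25 after sCAG (adjusted p = 1.00e-07, limma). IFIT2 was at 4.25, 2.81 and 3.596 CPM, then 2.62, 4.62 and 4.43 after sG5C and 13.9, 12.0 and 11.6 after sCAG. In both genes the sCAG libraries lay above all others, and the sG5C libraries overlapped the control. TRIM22 was at 28.4, 27.4 and 29.02 CPM under sNT8, at 13.2, 15.5 and 15.8 after sG5C and at 89.8, 90.9 and 93.2 after sCAG. After sG5C TRIM22 fell by 0.91 ± 0.08 on the log2 scale, and after sCAG it rose by 1.65 ± 0.05, with all 3 groups apart and a direct difference of 2.56 ± 0.07.

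Entry-blocking IFITM3, the most abundant member per kilobase in HeyA8, was at 147, 131 and 121 CPM under sNT8, at 148, 161 and 182 after sG5C and at 401, 383 and 389 after sCAG. It rose after both, by 0.32 ± 0.08 and 1.53 ± 0.06, and its sCAG libraries stood apart. ISG15 was at 2.85, 3.36 and 3.43 CPM, then 3.38, 3.87 and 3.61 after sG5C and 7.11, 7.56 and 7.92 after sCAG. ISG15 stood apart after sCAG (1.19 ± 0.13) and was not called after sG5C (0.19 ± 0.15, adjusted p = 0.293, limma). IFIT1 was at 2.00, 1.67 and 1.37 CPM, then 1.94, 2.73 and 2.13 after sG5C and 3.17, 2.87 and 3.25 after sCAG, a rise of 0.85 ± 0.19 after sCAG. After sG5C IFIT1 was not called, at 0.45 ± 0.20, but was called without sNT8 library A (0.59) or sG5C library A (0.56). All 4 IFIT genes were called higher after sCAG, and IFIT5 was also called after sG5C (0.47 ± 0.08). IFIT3 rose by 1.24 ± 0.09 after sCAG, UBE2L6 by 1.07 ± 0.06, SP110 by 1.05 ± 0.09 and IFITM2 by 0.62 ± 0.10, and after sG5C none of these 4 was called, though IFITM2 was without sNT8 library A (0.31). PARP14 was called after neither (-0.05 ± 0.05 after sG5C, -0.07 ± 0.05 after sCAG), and IFI27 had changes of 0.61 ± 0.33 and -0.11 ± 0.36, of which the first was called without sG5C library B (0.87). OAS2 was below the filter for sG5C and not called after sCAG (0.63 ± 0.36).

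The 4 factor genes were each called higher after sCAG in HeyA8, with log2 changes from 0.32 for IRF7 to 0.86 for IRF1. STAT2 was at 86.7, 86.6 and 83.2 CPM under sNT8, at 65.4, 61.9 and 64.8 after sG5C and at 159.5, 150.3 and 154 after sCAG. STAT2 fell after sG5C (-0.40 ± 0.06) and rose after sCAG (0.82 ± 0.05), with the 3 groups apart. IRF1 was at 11.7, 10.5 and 10.6 CPM, then 18.3, 18.7 and 18.7 after sG5C and 21.3, 19.0 and 20.6 after sCAG. It rose after both, by 0.79 ± 0.09 and 0.86 ± 0.08, and the direct difference was 0.07 (95% interval -0.08 to 0.21). Scaled by library totals alone, it was -0.18 and called lower after sCAG. IRF7 was at 12.8, 14.8 and 12.0 CPM, then 9.79, 8.58 and 9.52 after sG5C and 16.5, 15.8 and 18.4 after sCAG, so that it fell after sG5C (-0.48 ± 0.10) and was called higher after sCAG (0.32 ± 0.09). IRF9 changed by 0.60 ± 0.19 and 0.70 ± 0.18.

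Against these, 8 of the 38 members tested fell in HeyA8 after sCAG, a share below the 30.2% of all genes called lower. In PC3 these 8 were called higher after sCAG, as all 47 members were. OAS3 was at 28.99, 26.9 and 27.5 CPM under sNT8, at 22.0, 21.0 and 21.3 after sG5C and at 7.43, 5.78 and 6.73 after sCAG in HeyA8. Its sCAG libraries lay far below the others, with a log2 change of -2.10 ± 0.09 (adjusted p = 1.08e-16, limma). USP18 was at 1.29, 1.75 and 1.65 CPM, then 1.55, 1.22 and 1.31 after sG5C and 0.449, 0.495 and 0.440 after sCAG, a change of -1.72 ± 0.27 after sCAG. PLSCR1 was at 70.2, 68.4 and 66.1 CPM, then 45.6, 49.2 and 48.7 after sG5C and 24.6, 26.4 and 25.1 after sCAG, with 3 separate groups and changes of -0.49 ± 0.06 and -1.46 ± 0.06. MX1, near 1 CPM under sNT8 at 0.905, 1.15 and 0.796, was at 1.21, 0.960 and 0.957 after sG5C and at 0.481, 0.462 and 0.271 after sCAG, a change of -1.23 ± 0.33 after sCAG (adjusted p = 0.00203, limma).

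The other 4 that fell after sCAG were ISG20, IFI44L, HERC5 and HERC6. ISG20 was at 4.55, 4.59 and 4.89 CPM under sNT8 and 2.53, 2.15 and 3.49 after sCAG, a change of -0.84 ± 0.16. HERC6 was at 12.9, 14.2 and 13.9 CPM under sNT8, at 6.42, 5.50 and 5.83 after sG5C and at 11.6, 11.0 and 10.9 after sCAG. HERC6 changed by -1.19 ± 0.10 after sG5C and -0.32 ± 0.09 after sCAG, and stood higher after sCAG than after sG5C (direct difference 0.86 ± 0.10). HERC5 was at 4.94, 4.51 and 4.36 CPM under sNT8 and 4.13, 3.47 and 3.42 after sCAG, a change of -0.36 ± 0.14 (adjusted p = 0.0276, limma). The HERC5 call was lost with DESeq2, with no filter on low counts and without sNT8 library A (-0.31) or B (-0.38) or sCAG library B (-0.32) or C (-0.32). Of the 5 genes of the ISG15 system, ISG15 itself and the conjugating enzyme gene UBE2L6 thus rose in HeyA8 after sCAG, while the ligase gene HERC5, its relative HERC6 and USP18, which removes the modifier, fell.

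After sG5C in HeyA8 the falls outnumbered the rises among the members, with 16 lower and 7 higher of 37, beside 27.9% and 24.5% of all genes. IFI44L was at 7.87, 6.95 and 9.94 CPM under sNT8, at 1.10, 1.72 and 1.64 after sG5C and at 6.41, 5.61 and 5.92 after sCAG, and the sG5C libraries lay far below the others (-2.44 ± 0.17, adjusted p = 1.60e-12, limma). PML was at 95.3, 92.3 and 90.8 CPM, then 38.4, 39.7 and 39.8 after sG5C and 144, 141 and 146 after sCAG. PML was thus called lower after sG5C in both lines, with changes of -1.22 ± 0.06 in HeyA8 and -0.29 ± 0.07 in PC3, and higher after sCAG in both, with 0.59 ± 0.05 and 1.498 ± 0.06. DTX3L was at 69.7, 67.2 and 64.7 CPM, then 33.9, 34.4 and 32.5 after sG5C and 73.1, 71.8 and 69.8 after sCAG, a fall after sG5C (-0.98 ± 0.06) with no call after sCAG (0.05 ± 0.05).

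IFI16, SAMD9 and PARP9 also fell after sG5C and rose after sCAG in HeyA8. IFI16 was at 207, 187 and 199 CPM under sNT8, at 110.0, 116 and 120.2 after sG5C and at 259, 255 and 249.8 after sCAG. SAMD9 was at 34.3, 30.004 and 27.6 CPM, then 17.2, 19.4 and 18.7 after sG5C and 48.9, 49.1 and 46.02 after sCAG. PARP9 was at 15.9, 16.6 and 15.6 CPM, then 9.96, 12.1 and 10.3 after sG5C and 22.7, 21.4 and 20.9 after sCAG. All 3 groups lay apart for each of these genes. IFI35 (-1.02 ± 0.11 after sG5C, 0.27 ± 0.08 after sCAG), IFI44 (-0.64 ± 0.15 and 0.85 ± 0.11), SP100 (-0.37 ± 0.06 and 0.47 ± 0.04) and LGALS3BP (-0.58 ± 0.06 and 0.54 ± 0.04) showed the same pair of signs. SAMD9L, the neighbour of SAMD9, was called higher after both, with changes of 0.56 ± 0.11 and 1.67 ± 0.11.

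Of the 37 members tested after sG5C in HeyA8, 7 were called higher, a share below the 24.5% of all genes. They were IFI6, APOL1, IRF1, IRF9, SAMD9L, IFIT5 and IFITM3. IFI6 was at 2.80, 2.15 and 2.11 CPM under sNT8, at 3.602, 4.54 and 4.18 after sG5C and at 8.24, 6.96 and 7.78 after sCAG, with 3 separate groups. APOL1 was at 1.10, 2.04 and 1.24 CPM, then 2.14, 2.76 and 2.38 after sG5C and 4.78, 4.89 and 5.55 after sCAG, and here too no library of one group overlapped another's.

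**Figure D5:**
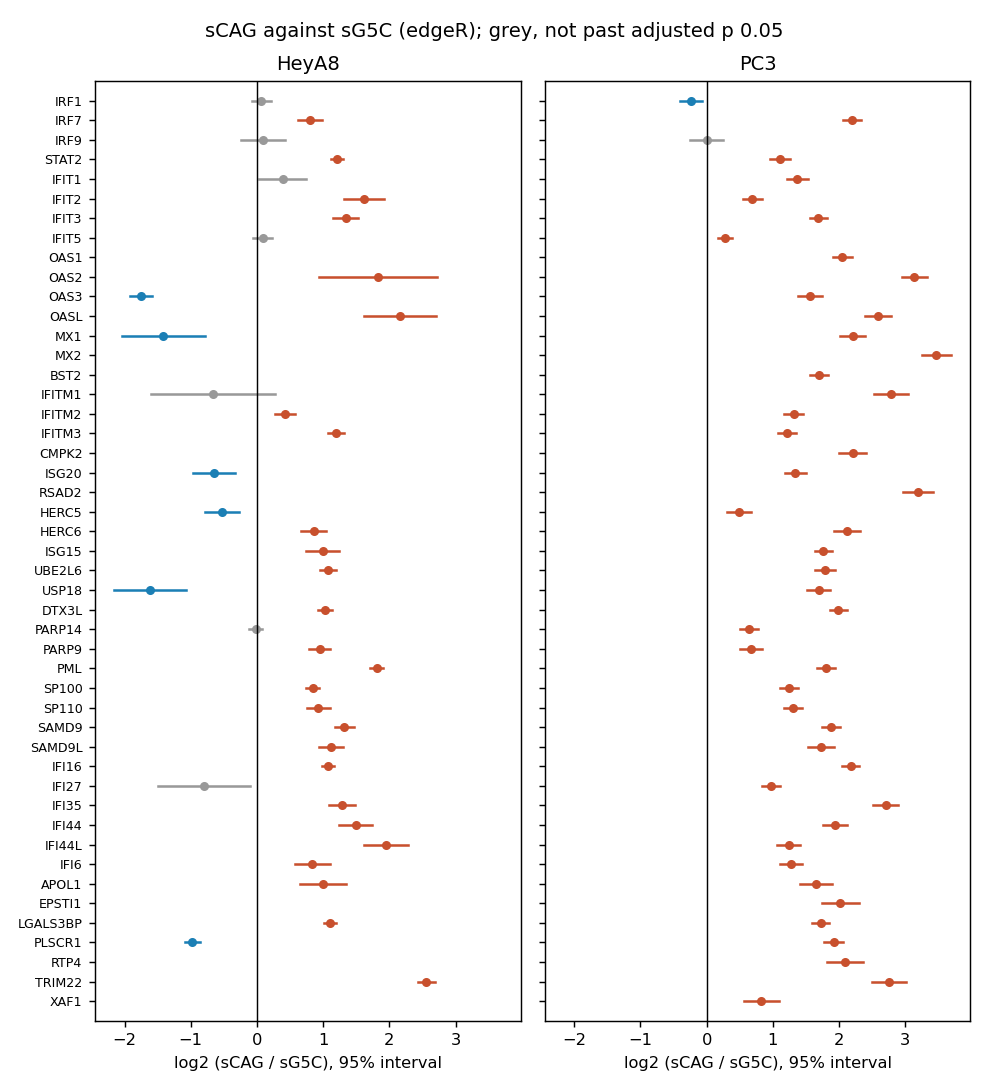
Direct log2 difference between sCAG and sG5C in each line (edgeR), with 95% intervals, red where sCAG was called higher, blue where it was called lower and grey where neither. In PC3 the points lie to the right of 0 apart from IRF1 at -0.24 and IRF9 at 0.004, while HeyA8 has OAS3 at -1.75 and TRIM22 at 2.56 at its ends.

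The change after each short RNA was then compared between the lines with an interaction term in edgeR. Among the 38 members that reached the filter in both lines after sCAG, 37 had the higher change in PC3 and 0 the lower, beside 22.1% and 15.0% of all genes, with IRF9 the exception and a median log2 difference of 2.12. Among the 37 such members after sG5C, 34 had the higher change in PC3 and 0 the lower, beside 18.3% and 14.6% of all genes, with IFI27, IFITM2 and IRF9 the exceptions and a median of 1.18. The median over all genes tested was 0.02 for sCAG and 0.002 for sG5C. These medians and shares are over all 27105 genes of the fit. They were not limited to genes that reached the filter in both lines, as the members here were. The fitted differences of members with almost no reads in HeyA8 depend on the software's prior count and are not given.

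Among members that reached the filter in both lines, the widest line differences after sCAG were in genes that fell in HeyA8. MX1 changed by 3.66 ± 0.20 in PC3 and -1.23 ± 0.33 in HeyA8, a difference of 4.92 ± 0.40 (adjusted p = 1.59e-12, edgeR). OAS3 differed by 4.48 ± 0.14 and USP18 by 4.18 ± 0.24. After sG5C the widest were IFI44L, which changed by 1.66 ± 0.12 in PC3 and -2.44 ± 0.17 in HeyA8 (difference 4.12 ± 0.20), and TRIM22, with 2.71 ± 0.25 and -0.91 ± 0.08 (difference 3.61 ± 0.21). At the other end after sCAG, IRF9 differed by 0.34 (95% interval -0.11 to 0.80). After sG5C IRF9 differed by 0.44 (-0.01 to 0.89), which was not the smallest difference, and it was called without PC3 sNT8 library C at 0.62.

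The genes upstream of the members were read from lists of 13 interferon genes, 21 receptor and signalling genes and 12 genes best known as targets of interferon gamma. No interferon gene reached the filter in HeyA8, and 2 did in PC3. IFNB1, the interferon that most cells make first, had at most 6 reads in any library, and IFNG had none. IFNE, an epithelial interferon, was at 3.51, 4.09 and 4.36 CPM in PC3 under sNT8, at 7.97, 10.0 and 6.95 after sG5C and at 4.26, 3.90 and 4.09 after sCAG. It was called higher after sG5C (1.05 ± 0.14) and was not called after sCAG (-0.02 ± 0.14). IFNA1, a type I interferon, had 13, 9 and 10 reads in PC3 under sNT8, 18, 27 and 21 after sG5C and 17, 5 and 16 after sCAG. It too was called higher after sG5C (0.97 ± 0.37, adjusted p = 0.0249, limma) and not after sCAG (0.06 ± 0.47), at a low count and with the near-identical gene IFNA13 that may share its reads.

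Of the signalling genes, 19 were tested in PC3, with 12 higher and 2 lower after sCAG, beside 27.6% and 23.2% of all genes, and 10 higher and 4 lower after sG5C, beside 28.5% and 29.2%. In HeyA8 18 were tested, with 10 higher and 2 lower after sCAG, beside 29.3% and 30.2% of all genes, and 7 higher and 3 lower after sG5C, beside 24.5% and 27.9%. The counts called lower were each below the share of all genes. Their median log2 changes were 0.40 after sCAG and 0.19 after sG5C in PC3, and 0.23 and 0.15 in HeyA8. The receptor gene IFNAR1 changed by 0.57 ± 0.06 after sG5C and 0.48 ± 0.04 after sCAG in PC3, and by 0.42 ± 0.06 and 0.43 ± 0.05 in HeyA8. SOCS1, a feedback inhibitor of the receptor kinases, rose in PC3 after both, by 1.85 ± 0.21 and 1.97 ± 0.20, from 32, 24 and 26 reads under sNT8. In HeyA8 SOCS1 fell by 2.31 ± 0.18 after sG5C. Its unscaled reads there were 406, 239 and 216 under sNT8 and 172, 94 and 174 after sCAG. The kinase genes JAK1 and TYK2 changed by 0.38 ± 0.04 and -0.07 ± 0.05 in PC3 after sCAG, and by 0.78 ± 0.06 and -0.59 ± 0.06 after sG5C. The 2 chains of the interferon gamma receptor moved in opposite directions after sCAG. IFNGR1 rose by 0.67 ± 0.08 in PC3 and 0.58 ± 0.06 in HeyA8, and IFNGR2 changed by -1.09 ± 0.06 and -1.40 ± 0.08, both called lower. After sG5C IFNGR1 was not called in either line (0.15 ± 0.09 in PC3, -0.11 ± 0.07 in HeyA8), and IFNGR2 rose by 0.64 ± 0.07 and 0.74 ± 0.07.

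Among the interferon gamma targets, 8 of the 9 tested in PC3 were called higher after sCAG and 0 lower, beside 27.6% and 23.2% of all genes, and 4 of 7 higher and 1 lower after sG5C, beside 28.5% and 29.2%. CIITA, the master regulator of MHC class II genes, changed by 1.06 ± 0.22 after sCAG and 0.11 ± 0.31 after sG5C in PC3. In HeyA8 5 were tested, with 1 higher and 1 lower after sCAG, beside 29.3% and 30.2% of all genes, and 2 higher and 1 lower after sG5C, beside 24.5% and 27.9%, and with so few genes these counts are near the shares of all genes. Their median log2 changes were 2.69 after sCAG and 0.27 after sG5C in PC3, and -0.28 and 0.22 in HeyA8.

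The lines were checked against lineage and immune markers. The 10 leukocyte markers summed to 0.219 to 0.727 CPM over the HeyA8 libraries and to 1.35 to 2.37 CPM over the PC3 libraries, with PC3 sCAG at 1.60 to 2.17 and PC3 sNT8 at 1.35 to 2.37. Of 4 markers of plasmacytoid dendritic cells, blood cells that make much interferon, LILRA4 and CLEC4C had at most 4 reads in any library, and the list's sum, from 21.8 to 89.5 CPM, was mostly TCF4. The 4 prostate markers summed to 219 to 235 CPM in PC3 under sNT8, to 49.8 to 61.0 after sG5C and to 215 to 231 after sCAG, and to at most 9.71 CPM in HeyA8. KLK3, which encodes prostate-specific antigen, had no read in any library, so this defining marker of prostate is absent from PC3. The 3 ovarian markers summed to 367 to 392 CPM in HeyA8 under sNT8, nearly all of it PAX8, and to at most 53.3 CPM in PC3, while MUC16, the ovarian cancer antigen CA-125, had no read in HeyA8 under sNT8. The mesenchymal markers VIM and FN1 summed to 13062 to 14585 CPM in HeyA8 under sNT8, to 3882 to 4153 after sG5C and to 31966 to 34475 after sCAG, and in PC3 to 400.3 to 412, 623 to 682 and 326 to 339. The 5 epithelial markers summed to 937 to 1069 CPM in HeyA8 under sNT8, 369 to 402 after sG5C and 1461 to 1567 after sCAG, and in PC3 to 452 to 494, 526 to 613 and 719.9 to 727. These sums move with the short RNA, but single genes within a sum can move in opposite directions. The reads given next are not scaled for library size, unlike the sums, so they show direction and not the size of a change in CPM. In HeyA8 after sCAG, VIM fell from 139817, 124857 and 131556 reads under sNT8 to 90961, 87358 and 83608. FN1 rose from 391907, 330070 and 357753 reads to 913661, 881062 and 935286. In PC3 after sCAG, CDH1 fell from 114, 87 and 106 reads to 19, 12 and 21. KRT19 rose there from 11482, 10207 and 9410 reads to 18728, 19327 and 15967. The part of these markers in the members' changes was not tested.

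Counts of a few further members carry an uncertainty from neighbours, since whether counting used the strand is not stated in the labels or headers. IRF1 shares 22.0% of its exon bases with C5orf56 on the opposite strand, XAF1 38.3% with PRAL, IFITM3 21.3% with AC136475.5 and SP110 18.4% with AC009950.1. PARP9 and DTX3L overlap by 217 bases on opposite strands. The partners of XAF1 and IFITM3 stayed below 1 CPM in each group mean, while C5orf56 was at 3.50 CPM in PC3 under sNT8, 15.1 after sG5C and 14.2 after sCAG.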

How the data were processed

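Total RNA of 18 libraries was sequenced by the authors after preparation with TruSeq total RNA kits, per the labels' protocols. The submitters' processing notes name TopHat, Bowtie2, HTSeq and DESeq2 and the build hg38, without versions. The 4 deposited tables hold, for 1 comparison with sNT8 each, counts per gene that the authors divided by size factors, a normalised signal. The authors' deposited log2 fold changes, p-values and test score (a Wald statistic), per the file headers from their own comparison of the same libraries, were not used for results.

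Whole reads were recovered from the deposited signal, since each library's values are whole multiples of 1 step (100% of values, within 1e-06), and the sNT8 reads agreed between both tables of a line. Against sNT8, limma 3.58.1 (trend and robust) was run on log2(deposited value + 1) over genes kept by filterByExpr with a minimum count of 10. A fold change on this scale understates the change of low genes. The direct contrasts, the interactions and the contrast between lines used edgeR 4.0.16 quasi-likelihood with TMM on the recovered reads. Genes were called at 0.05 after Benjamini-Hochberg adjustment over the genes of each fit. The tests were tried on simulated counts first. Reads per kilobase used the exon union of GENCODE release 29. R 4.3.3, Python 3.11.15, pandas 2.3.3 and matplotlib 3.10.9 were used.

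The members and lists were chosen with earlier results of these data known. All 47 members are accounted for, with values by library for a named set of members and for those called in opposite directions, and some pathway genes are not reported here. Alternatives were TMM, library totals, edgeR or DESeq2 1.42.0, pseudocounts 0.1 and 5, no filter, a minimum count of 50, a replicate block and leaving out each library. Floors of 3 reads cover counting error only, with 31232377 to 41384838 reads per library.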

Additional observations from a re-analysis of the deposited data

Results flagged for a closer look

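The change after a short RNA differed between PC3 and HeyA8 by an interaction test (edgeR, adjusted p under 0.05) for 41 of 47 members after sCAG and 36 of 47 after sG5C, all with the higher change in PC3. Over all 27105 genes of the fit, 22.1% had the higher change in PC3 and 15.0% the lower after sCAG, and 18.3% and 14.6% after sG5C. The member counts include members that reached the read filter through PC3 alone. Among members that reached it in both lines against sNT8, they were 37 of 38 and 34 of 37. The values here are differences between the log2 change in PC3 and that in HeyA8, for members called higher in PC3 and lower in HeyA8. After sCAG the difference was 4.92 for MX1, 4.48 for OAS3, 4.18 for USP18 and 3.63 for PLSCR1. For IFI44L it was 3.40, for HERC6 2.90, for ISG20 2.78 and for HERC5 2.16. After sG5C it was 4.12 for IFI44L, 3.61 for TRIM22, 1.94 for PARP9 and 1.93 for STAT2. SAMD9 differed by 1.76, HERC6 by 1.65, IFI35 by 1.36 and OAS3 by 1.18. The smallest of these were SP100 at 1.11, IFI44 at 1.08, LGALS3BP at 0.79 and PLSCR1 at 0.74.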

How the results depend on the processing

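The counts of members called in each direction stayed within 1.5 times the reported count in 295 of 302 alternative values. With libraries scaled by totals alone, members called lower numbered 2 in place of 1 for PC3 sG5C against sNT8 and 10 in place of 6 for HeyA8 sCAG against sG5C, and in the latter IFIT5 and IRF1 turned to log2 differences of -0.16 and -0.18. For PC3 sCAG against sG5C, DESeq2 called 0 members lower in place of 1. Leaving out 1 library, that count ran from 0 to 1, and members called lower for PC3 sG5C against sNT8 from 1 to 2. The cause was not tested. Of 6701 alternative values for single members, 42 lost and 27 gained a call, and 2 reversed, in 36 of 396 pairs of comparison and member.

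Scaling by totals shifted the all-gene median by more than 0.1, to -0.11 for sCAG and 0.14 for sG5C against sNT8 in HeyA8, -0.17 for sCAG in PC3, -0.30 and -0.16 for sCAG against sG5C in HeyA8 and PC3, -0.20 for the sG5C effect between lines and 0.35 for sNT8 between lines. Over all genes, the higher and lower calls became 5082 and 7911 (from 6425 and 6602) for HeyA8 sCAG, 7425 and 4834 (from 5497 and 6245) for HeyA8 sG5C, 4129 and 7957 (from 6339 and 5328) for PC3 sCAG, 5337 and 10444 (from 7402 and 7757) for sCAG against sG5C in HeyA8, 3210 and 6549 (from 4953 and 3944) for the sG5C effect, and 12680 and 6948 (from 10456 and 8879) for sNT8 between lines.

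With the letter as a replicate block, PC3 sG5C had 43 members higher in place of 42, with IRF7 added at an unchanged log2 change of 0.18, and no other count of members changed. Deviations of same-lettered libraries correlated at -0.07 to 0.09 in HeyA8 and 0.06 to 0.19 in PC3. In PC3 all 9 pairs were above 0 and 6 were over 0.1, the limit set for every pair, so the letters were not taken as pairs. In PC3 each library correlated best with its own letter in 18 of 18 comparisons of a library with another group, and in HeyA8 in 12 of 18. Depth limits the members with under 3 reads over a HeyA8 group.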

Other observations

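In PC3, library A had the lowest level of its group for 42 of 47 members under sNT8, 40 after sG5C and 44 after sCAG, and library C the highest for 33, 28 and 46. The share of all genes with this order was not counted, so it is not known whether the order is particular to the members. In HeyA8 library A was lowest for 10 of the 42 members with reads in all 3 sNT8 libraries, for 25 of 40 after sG5C and for 7 of 40 after sCAG. The labels use the letters as names only, yet the order recurred in each PC3 group. Its cause was not tested.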
